A study of Mus musculus with 405 samples.

Results

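The genes described here encode the voltage-gated sodium and calcium channels. They were chosen by symbol, as every gene whose symbol starts with Scn and a digit (the pore-forming and beta subunits of sodium channels) or with Cacna, Cacnb or Cacng (the subunits of calcium channels). The table of the chemical screen held 31 such genes among 13304, and a table of read counts for the fungicide pyraclostrobin held 40 among 23893. Cortical neurons from E15 embryos of C57BL/6J dams and CAST/EiJ males were cultured, treated with an inhibitor of cell division, and exposed on day 7 in vitro for 24 h to 1 chemical or to vehicle (the solvent DMSO). PolyA RNA was sequenced. The screen table had 49 vehicle libraries and 344 libraries from 297 chemicals, of which 282 had 1 library each, and the count table had 4 libraries with pyraclostrobin at 0.1 μM and 4 with vehicle. All of these groups shared the hybrid strain, the age and the culture medium, and the labels do not say which libraries of a group came from separate cultures. For pyraclostrobin the study counts fewer biological replicates than libraries, so that some libraries may share a culture. Where they do, p-values measure a spread that is in part technical.

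Voltage-gated sodium channels open when the membrane is depolarized and carry the rising phase of the action potential. Each has a large alpha subunit, which forms the pore, and smaller beta subunits, which set its gating and its place in the membrane. Calcium channels of the Cav1 and Cav2 families open at strong depolarization and couple electrical activity to gene expression and to transmitter release, and Cav3 channels open at weaker depolarization and shape bursts of firing. Their alpha2delta and beta subunits carry the pore to the surface. The gamma genes encode a related family, most of whose brain members, called TARPs, are known chiefly as partners of AMPA receptors. Pyrethroid insecticides hold sodium channels open, which is why these genes are of interest in a screen of pesticides.

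In the vehicle libraries of the count table the channel genes covered a wide range of levels. Levels were compared between genes as CPM (counts scaled to the size of the library) per kb of exon. Among sodium channel alpha genes the highest was Scn2a1, which encodes the channel Nav1.2 of immature axons, at 39.9 ± 11.7 (SD, n = 4), followed by Scn8a (Nav1.6, the main channel of mature nodes and initial segments) at 15.1 ± 3.22, Scn3a (the embryonic channel Nav1.3) at 10.6 ± 2.65 and Scn1a (Nav1.1, prominent in interneurons) at 5.00 ± 2.30. The ranges of mean ± SD overlapped for Scn8a and Scn3a, and that of Scn2a1 overlapped neither. Scn9a, known best from peripheral neurons, was at 0.654 ± 0.645. Of the beta genes, Scn3b was highest at 78.1 ± 7.46, Scn2b was at 14.5 ± 2.62 and Scn4b at 0.366 ± 0.0844.

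Among calcium channel genes Cacnb3, a beta subunit, was highest at 68.6 ± 8.11 CPM per kb, followed by the alpha2delta gene Cacna2d1 at 43.6 ± 9.002 and the beta gene Cacnb1 at 28.7 ± 2.43. The pore genes lay lower: Cacna1b (N-type, Cav2.2) was at 17.6 ± 3.92, Cacna1h (Cav3.2) at 12.3 ± 2.33, Cacna1e (Cav2.3) at 11.2 ± 4.89 and Cacna1a (P/Q-type, Cav2.1) at 10.8 ± 2.71. The last 3 of these did not differ beyond their spread. In total 31 of the 40 genes had at least 10 counts in at least 4 of the 8 libraries and were tested. The other 9 were Cacna1s, Cacng1, Cacng6, Scn4a, Cacna1f, Cacna2d4, Scn7a, Scn10a and Scn11a, several of which are known from skeletal muscle, retina or sensory neurons. Scn4a had 0 counts in all 8 libraries, which allows a level of up to 1.25 CPM in the library with the fewest reads, and Scn7a had 1 to 10 counts. Such limits cover counting error only. The genes of the screen table are the same 31 that passed this filter, and 9 channel genes share exon sequence with another gene model, among them Cacna1h, Cacnb1 and Cacng2, so that their counts are less certain.

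**Figure D1:**
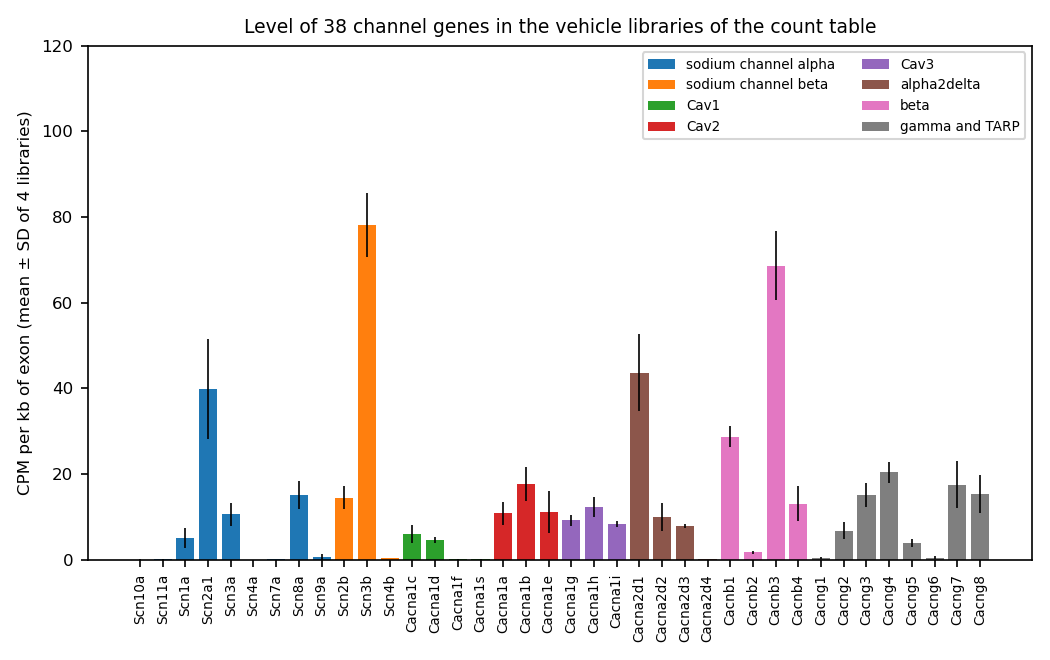
Level of 38 channel genes in the 4 vehicle libraries of the count table, as mean CPM per kb of exon with the SD as error bar, coloured by subunit class. Scn3b at 78.1 and Cacnb3 at 68.6 stand highest, and the 9 genes that were not tested lie at or near 0.

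The start regions of the channel genes were searched for the element RE1, the sequence that the repressor Rest recognizes. Rest keeps neuronal genes silent in other tissues, and the sodium channel gene Scn2a1 is among the genes in which this element was first described. Within 2 kb to either side of the start, the letters CAGNACCNNGGACAG were found on either strand in 142 of 22380 genes of the mm9 annotation, a share of 0.634%, and in 3 of the 41 models that carry a channel symbol (Scn8a has 2). These 3 stretches are shown, in mm9 and on the plus strand of the chromosome for Cacna1b and Scn2a1 and on the minus strand for Scn3b, because the counts of Rest itself were higher with pyraclostrobin. The capitals mark the match.

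Cacna1b, chr2:24617562-24617662, in an intron 1053 bases after the start: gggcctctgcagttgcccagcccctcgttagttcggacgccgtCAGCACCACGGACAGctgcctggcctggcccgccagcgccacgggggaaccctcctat
Scn2a1, chr2:65457980-65458080, 891 bases before the start: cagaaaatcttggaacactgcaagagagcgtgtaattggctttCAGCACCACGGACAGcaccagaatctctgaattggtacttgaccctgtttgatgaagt
Scn3b, chr9:40077322-40077350, in an exon 528 bases after the start: cttggctCAGCACCACGGACAGtagcctt

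The match was the same 15 bases in all 3 genes. A match is a description of the sequence only, and the absence of a match in the other genes says only that these letters are not in the window searched.

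The libraries of the count table held 2409623 to 7833440 counts, and the vehicle libraries 703 and 704 were deeper than the other 6, which had at most 2893598. Neuronal markers summed to 6614 to 7228 CPM in the vehicle libraries, and markers of astrocytes (723 to 1223 CPM) and of other glia were present too. The endothelial marker Cldn5 was at 0 in all libraries. The vehicle library numbered 428 stood apart: it was the lowest vehicle library for 6 channel genes by Dixon's ratio, so results are also given without both libraries of that number. Both libraries numbered 428 had the highest Gfap, an astrocyte marker, of their group (640 CPM with pyraclostrobin and 151 with vehicle). They also had the lowest Gad2, a neuronal marker (16.1 and 75.2 CPM). Whether they share a culture is not given by the labels. The pyraclostrobin library 428 is also the pyraclostrobin library of the screen table. In the screen table values are log2 deviations from the centre of each gene, with no level and no known depth, and the SD of a channel gene over the 49 vehicle libraries ranged from 0.108 for Scn2a1 to 0.653 for Scn9a, beside a median of 0.254 over all genes.

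Pyraclostrobin inhibits mitochondrial complex III, and the count table allows its effect on channel genes to be tested with replicates. In a fit without pairing of the libraries, 11 of the 31 channel genes tested passed (were called) at an adjusted p under 0.01, 9 downward and 2 upward. Over all 12324 genes tested the share called was 21.3%, with 9.22% lower and 12.1% higher. The median log2 difference was -0.44 for the channel genes and -0.00213 for all genes, and 27 of the 31 lay below 0. The largest fall was that of Scn2b at -1.04, and Scn4b, which rose, was among the least abundant. Libraries of both groups did not overlap for 11 channel genes, 9 of them lower with pyraclostrobin, and over all genes this held for 35.2%. These are bulk libraries, in which fewer cells of a type and less RNA per cell cannot be told apart.

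Among the sodium channel alpha genes, Scn8a, the channel of the mature initial segment, fell. It was at 60.05, 93.5, 81.8 and 96.4 CPM in the pyraclostrobin libraries 428, 702, 703 and 704, and at 114, 185, 182 and 189 CPM in the vehicle libraries of the same numbers. The groups did not overlap, although the vehicle library 428 lay closest to the exposed ones, and the level with pyraclostrobin was 0.495 times that with vehicle (log2 difference -1.02, SE 0.19, edgeR adjusted p = 0.00216). Scn3a also fell, with a log2 difference of -0.78 (adjusted p = 0.00792), and here the vehicle library 428 at 83.1 CPM lay below the pyraclostrobin library 704 at 88.5 CPM. Scn1a at -1.01 (adjusted p = 0.0590), Scn2a1 at -0.67 (0.0277) and Scn9a at 0.05 (0.963) were not called at 0.01.

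The beta genes of sodium channels held a rise and a fall. Scn2b, whose protein is linked to the alpha subunit by a disulfide bond, was at 22.8, 42.1, 28.2 and 35.5 CPM with pyraclostrobin and at 48.1, 73.6, 70.1 and 72.0 CPM with vehicle. All 4 exposed libraries were below all 4 vehicle libraries, and the log2 difference was -1.04 (SE 0.21, adjusted p = 0.00269). Scn4b, a subunit tied to resurgent current, was at 4.71, 4.51, 5.71 and 6.32 CPM with pyraclostrobin and at 1.78, 1.56, 1.48 and 2.40 CPM with vehicle. The groups were apart at these low levels, with a log2 difference of 1.51 (SE 0.30, adjusted p = 0.00258) and a fold of 2.85. Scn3b (-0.44, adjusted p = 0.0150) was not called.

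**Figure D2:**
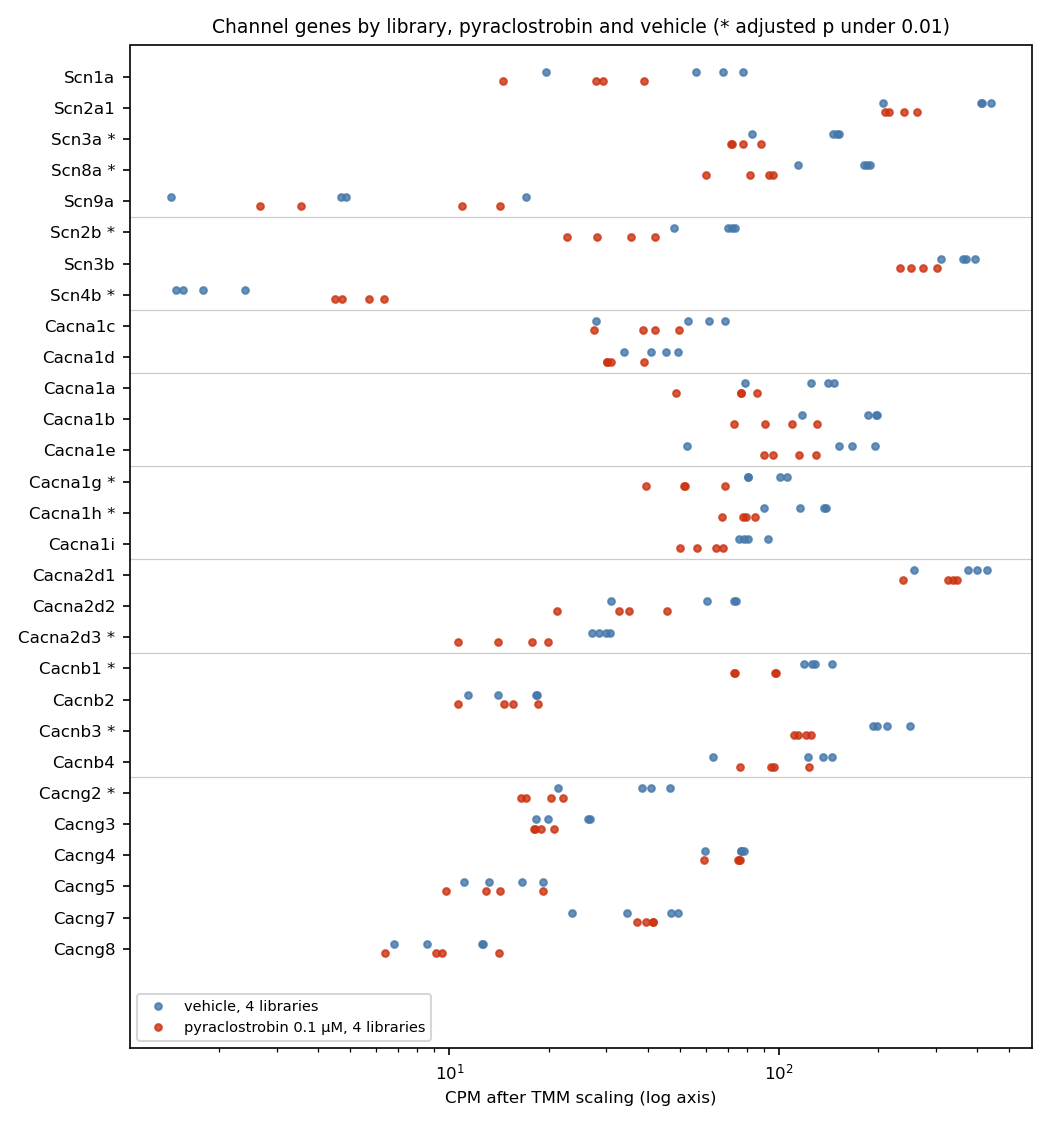
CPM after TMM scaling (log axis) of 29 channel genes in each of the 8 libraries of the count table, grouped by subunit class, with an asterisk at genes with an adjusted p under 0.01. The 4 pyraclostrobin points lie to the right of the 4 vehicle points for Scn4b (4.51 to 6.32 against 1.48 to 2.40), and to their left for 9 other genes such as Cacnb3 (111 to 126 against 194 to 250).

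The 5 high-voltage calcium pore genes tested (Cav1 and Cav2) did not pass at 0.01, and all had negative differences, between -0.79 for Cacna1b (adjusted p = 0.0124) and -0.39 for Cacna1d. At an adjusted p under 0.05, which 17 channel genes and 34.9% of all genes passed, Cacna1b and Cacna1a (-0.78, adjusted p = 0.0164) were called. In the Cav3 family Cacna1g (Cav3.1) fell. It was at 51.8, 51.5, 39.6 and 68.7 CPM with pyraclostrobin and at 80.6, 81.0, 101 and 106 CPM with vehicle. The exposed libraries were all lower, and the log2 difference was -0.81 (SE 0.18, adjusted p = 0.00451). Cacna1h fell too, with a difference of -0.65 (adjusted p = 0.00786), and Cacna1i at -0.46 did not pass (adjusted p = 0.0219).

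Of the auxiliary calcium channel subunits, 2 of 4 beta genes, 1 of 3 alpha2delta genes and 1 of 6 gamma genes fell, and none rose. Cacnb3, the most abundant calcium channel gene, was at 111, 115, 121 and 126 CPM with pyraclostrobin and at 250, 199, 213 and 194 CPM with vehicle. The exposed libraries were close together and far below all vehicle libraries, at 0.552 times their level (log2 difference -0.86, SE 0.12, adjusted p = 0.000328). Cacnb1 fell as well (-0.60, adjusted p = 0.00662), and Cacnb4 (-0.26) and Cacnb2 (-0.07) were not called. The alpha2delta gene Cacna2d3 was at 10.6, 19.9, 14.1 and 17.8 CPM with pyraclostrobin and at 29.96, 28.4, 30.7 and 27.2 CPM with vehicle, again without overlap (-0.90, SE 0.20, adjusted p = 0.00486). Cacna2d1 (-0.23) and Cacna2d2 (-0.84, adjusted p = 0.0397) were not called. Of the 6 gamma genes tested, Cacng2, which encodes the TARP stargazin, fell. It was at 20.4, 16.5, 17.1 and 22.1 CPM with pyraclostrobin and at 21.4, 38.5, 40.96 and 46.8 CPM with vehicle, so that the vehicle library 428 lay among the exposed libraries (-0.97, SE 0.23, adjusted p = 0.00780). The other 5 gamma genes lay between -0.27 and 0.03.

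The number of channel genes called depended on single libraries. Leaving out each library in turn gave 3 to 19: 3 without pyraclostrobin 703 or vehicle 703, 5 without vehicle 704, 6 without vehicle 702, 7 without pyraclostrobin 428 or 702, 8 without pyraclostrobin 704 and 19 without vehicle 428. The number called over all genes moved too, from 1682 of 12070 without vehicle 703 to 4052 of 12189 without vehicle 428. Without both libraries numbered 428, 22 channel genes were called and 39.8% of all genes. Cacnb3 and Scn8a were called under every alternative run.

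The 3 genes with the RE1 letters (Cacna1b, Scn2a1 and Scn3b) had negative differences, as had 27 of the 31 channel genes tested. None of the 3 was called at 0.01, with edgeR adjusted p-values between 0.0124 and 0.0277. Rest was at 3.21 to 6.30 CPM in the vehicle libraries and at 15.4 to 23.9 CPM with pyraclostrobin, with no overlap, and rose (log2 difference 1.93, adjusted p = 0.000291). It was looked at after results of these data were known. A part of Rest in the values of these genes was not tested.

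Of 31 genes listed for proteins that bind or regulate these channels, 29 were tested, 12 fell and 1 rose at an adjusted p under 0.01, beside 9.22% lower and 12.1% higher over all genes. The median log2 difference of the 29 was -0.74. Those that fell include Camk2a (-1.40), a kinase of synaptic plasticity, Rem2 (-1.18), a small GTPase that binds calcium channel beta subunits, Calm2 (-1.12), which encodes calmodulin, and Fgf12 (-1.11), which binds the tails of sodium channels. The gene that rose was Gem (2.83, SE 0.62), another GTPase that inhibits calcium channels. Its level was low, at 0.27 to 2.85 CPM with vehicle and 4.34 to 14.1 CPM with pyraclostrobin, so that the size of its rise is uncertain. Gem reached 10 counts only in the pyraclostrobin libraries, so that it was tested at all because it was high there. Cell markers moved with these values. Of 8 neuronal markers 6 fell and none rose (median -1.29), and their sum was 2693 to 3656 CPM with pyraclostrobin. All 5 microglial markers tested of 8 rose, from 21.02 to 29.2 CPM in sum with vehicle to 71.4 to 126 CPM. One of them, Trem2, at 0.900 to 4.28 CPM with vehicle, met the filter mainly through the pyraclostrobin libraries. Of the markers tested, 1 of 7 for astrocytes (sum 1054 to 3615 CPM with pyraclostrobin), 2 of 6 for the oligodendrocyte lineage (107 to 203 CPM with vehicle and 196 to 311 CPM with pyraclostrobin), 2 of 2 for endothelial and mural cells (Kdr of endothelium and Pdgfrb of pericytes, with a sum over the list of 7.95 to 13.6 and 24.0 to 33.5 CPM) and 3 of 4 for fibroblasts (24.5 to 61.3 and 122 to 266 CPM) rose, and 1 oligodendrocyte gene fell. The 7 astrocyte markers had a median log2 difference of 1.96, and only Slc1a2 (-0.39) was negative. Among them Aldh1l1 (2.28), Gfap (2.01), Aqp4 (1.96) and Slc1a3 (1.55) had large positive differences that were not called at 0.01. Of 8 immediate early genes, which follow neuronal activity, 2 rose and none fell (109 to 164 CPM with vehicle and 141 to 373 CPM with pyraclostrobin). The part of cell composition in the channel values was not tested.

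Fenamidone, another complex III inhibitor, had 2 libraries at 10 μM in the screen, which were compared with the 49 vehicle libraries. The comparisons of fenamidone, topotecan and pyrethroids all use the same vehicle libraries, so they are not independent of each other. With fenamidone 9 of 31 channel genes fell at a limma adjusted p under 0.05 and none rose, beside 15.7% of all 13304 genes called, 11.2% lower and 4.52% higher. The median difference was -0.25 for the channel genes and -0.021 for all genes. Those that fell included 4 of the 6 sodium channel alpha genes, and the low-level gene Scn4b had a positive difference that did not pass.

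Scn1a lay at -1.64 and -0.55 in the 2 fenamidone libraries and at -0.61, -0.02 and 1.34 (lowest, median and highest) with vehicle. The 2 libraries differed from each other by about as much as from the vehicle median, and the difference was -1.14 (SE 0.303, adjusted p = 0.00528). Scn2a1 lay at -0.89 and -0.49, beside -0.10, 0.06 and 0.32 with vehicle. Both libraries were below all 49 vehicle libraries (-0.76, SE 0.086, adjusted p = 4.06e-09). Scn3a lay at -1.03 and -0.46, beside -0.33, 0.04 and 0.42, also without overlap (-0.77, SE 0.112, adjusted p = 7.6e-07). Scn8a lay at -0.78 and -0.44, beside -0.31, 0.08 and 0.47, and was again below the vehicle range (-0.68, SE 0.134, adjusted p = 0.000147). Scn4b was at 0.82 and 0.85, inside the vehicle range of -1.12 to 0.90 (adjusted p = 0.0945).

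Of the other genes called with fenamidone, Scn2b lay at -0.59 and -0.53, beside -0.29, 0.06 and 0.49 with vehicle, and Cacna1b lay at -0.55 in both libraries, beside -0.26, 0.08 and 0.44. Neither overlapped the vehicle range, with differences of -0.63 (SE 0.124, adjusted p = 0.000128) and -0.63 (SE 0.112, adjusted p = 3.41e-05). Cacnb1 lay at -0.48 and -0.39, below the vehicle range of -0.27 to 0.29 (median 0.03), with a difference of -0.46 (SE 0.095, adjusted p = 0.000327). Cacng2 lay at -0.63 and -0.31 and overlapped vehicle (-0.50, 0.04 and 0.54), with a difference of -0.55 (SE 0.142, adjusted p = 0.00408). Cacnb3 completed the 9 with a difference of -0.38 (adjusted p = 0.0124). In all 6 channel genes were outside the vehicle range in both libraries, beside 8.09% of all genes. Of the genes with the RE1 letters, Scn3b was not called (-0.11). Rest had a difference of 0.53 with fenamidone, which was not called from these 2 libraries. The study lists Rest among the genes raised by fenamidone and pyraclostrobin in its replicated sequencing, and reports its rise with fenamidone by quantitative PCR. The 8 neuronal markers all fell with fenamidone, 4 of 7 astrocyte markers and 2 of 4 fibroblast markers rose, and 20 of 29 partner genes fell; their part in the channel values was not tested.

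Other inhibitors had 1 or 2 libraries each, at differing doses, and their values are set side by side without a test. They were trifloxystrobin and famoxadone at 10 μM, fluoxastrobin at 1 μM and azoxystrobin at 0.1 μM for complex III, and pyridaben and fenpyroximate at 0.1 μM and rotenone at 0.01 μM for complex I. Scn8a was at -0.85 with pyraclostrobin, -0.81 with trifloxystrobin, -0.62 with pyridaben, -0.61 with fenamidone and -0.47 with fenpyroximate, all below the vehicle range, and at -0.28 with famoxadone, -0.12 with rotenone, -0.03 with azoxystrobin and 0.00 with fluoxastrobin, inside it. Trifloxystrobin put the most channel genes outside the vehicle range of all 297 chemicals, 16 of 31 and all below, beside 15.7% of all genes. Pyraclostrobin put 11 below (16.1% of all genes outside), pyridaben 9 (4.98%), fenpyroximate 8 in either direction (16.8%), fenamidone 7 (13.1%), famoxadone 5 (10.2%) and rotenone 2 (3.79%). Azoxystrobin and fluoxastrobin put none outside, with 0.383% and 2.51% of all genes. Azoxystrobin was given at the dose of pyraclostrobin, 0.1 μM, and fluoxastrobin at a higher one. With 1 or 2 libraries for each compound, these differences were not tested. A median of 2 libraries, as for azoxystrobin, famoxadone, fenamidone and rotenone, varies less than 1 library. Their counts are therefore not strictly alike with those of the other compounds.

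**Figure D3:**
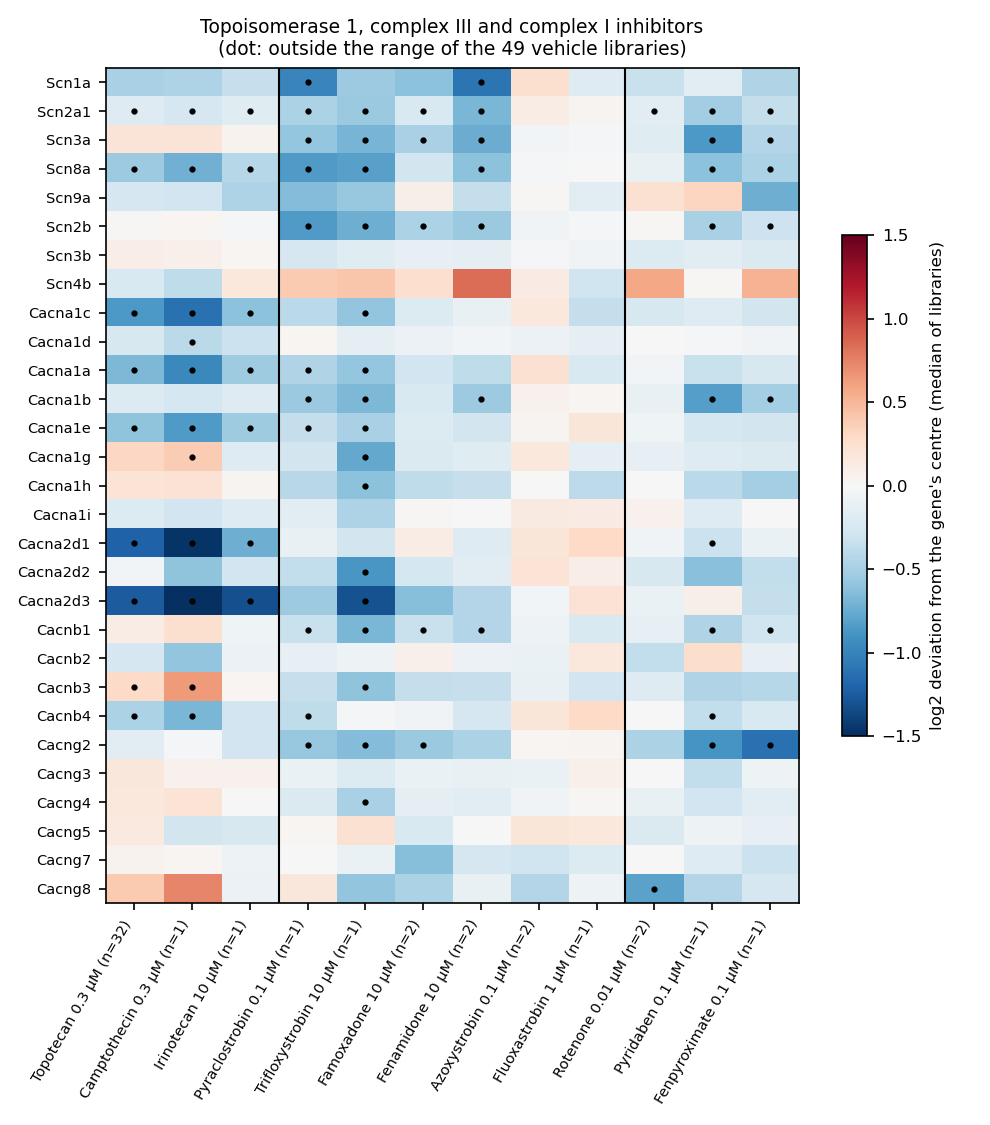
Log2 deviation of 29 channel genes from the centre of each gene for 3 topoisomerase 1 inhibitors (left), 6 complex III inhibitors (middle) and 3 complex I inhibitors (right), as the median of n libraries, with a dot where the value lies outside the range of the 49 vehicle libraries. Trifloxystrobin has the most dots, 16, azoxystrobin and fluoxastrobin have none, and the deepest values are those of Cacna2d1 and Cacna2d3 in the left block.

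Topotecan, an inhibitor of topoisomerase 1, the enzyme that relieves the twisting of DNA ahead of the polymerase, was a positive control of the screen with 32 libraries at 0.3 μM. Of the 31 channel genes 14 fell and 9 rose against vehicle at a limma adjusted p under 0.05, beside 45.8% of all 13304 genes called, 20.9% lower and 24.8% higher. The median difference was -0.15 for channel genes and 0.028 for all genes. The alpha2delta genes Cacna2d3 and Cacna2d1 fell the most, all 5 Cav1 and Cav2 pore genes fell, and Cacna1g, Cacna1h, Cacnb3, Cacnb1, Scn3b, Scn3a, Cacng3, Cacng4 and Cacng8 rose by 0.09 to 0.36. For each of the 8 largest changes, a two-sided permutation test with 100000 resamples gave 1e-05, the smallest p it can give.

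Cacna2d3 lay at -3.43, -1.25 and -0.40 (lowest, median and highest) with topotecan and at -0.68, 0.27 and 1.29 with vehicle. All 32 topotecan libraries were below the vehicle median, and the difference was -1.53 (SE 0.110, adjusted p = 1.81e-21). Cacna2d1, the subunit bound by gabapentin, lay at -2.41, -1.21 and -0.61 beside -0.32, 0.01 and 0.44. The groups did not overlap, which held for no other channel gene and for 1.01% of all genes, and the difference was -1.24 (SE 0.062, adjusted p = 4.1e-31). Cacna1c, the L-type channel Cav1.2, lay at -1.42, -0.86 and -0.14 beside -0.47, 0.03 and 0.63, with all topotecan libraries below the vehicle median (-0.90, SE 0.063, adjusted p = 7.17e-22).

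The Cav2 genes followed. Cacna1a lay at -1.26, -0.68 and -0.14 with topotecan and at -0.42, 0.13 and 0.95 with vehicle (-0.79, SE 0.059, adjusted p = 8.15e-21). Cacna1e lay at -1.15, -0.60 and -0.15 beside -0.32, 0.05 and 0.48 (-0.67, SE 0.045, adjusted p = 4.68e-23). In both genes all 32 topotecan libraries were below the vehicle median. Cacnb4 lay at -0.86, -0.47 and -0.18 beside -0.29, -0.02 and 0.67 (-0.49, SE 0.037, adjusted p = 4.99e-20). Scn8a lay at -1.02, -0.54 and -0.05 beside -0.31, 0.08 and 0.47 (-0.59, SE 0.044, adjusted p = 5.37e-21), again with all 32 below the vehicle median. Scn1a lay at -0.96, -0.49 and 0.30 beside -0.61, -0.02 and 1.34 (-0.46, SE 0.086, adjusted p = 3.98e-06), and here 27 of 32 were below it.

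The differences with topotecan went with the genomic span of the gene, its length from start to end in mm9 with introns. Of the 8 channel genes that span 200 kb or more, 7 fell and none rose, and of 793 genes of that span in the screen 84.0% fell. Of the 8 between 100 and 200 kb, 5 fell and 1 rose, beside 53.0% and 8.87% of all such genes. Of the 15 below 100 kb, 2 fell and 8 rose, beside 12.8% and 28.4%. The shares that fell were near those of all genes of the same span in each class, and the share that rose below 100 kb was 53.3%. Across the 31 genes the Spearman correlation of span and difference was -0.68, and across 12028 genes with a known span it was -0.41; genes of a library are not independent replicates. Cacna2d3 spans 816.9 kb, Cacna1c 603.9 kb and Cacna2d1 439.8 kb. Cacnb2, with 383.6 kb, was the member of the longest class that did not pass (-0.15, adjusted p = 0.0588), and Scn8a, with 90.5 kb, was the shorter gene with the largest fall.

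**Figure D4:**
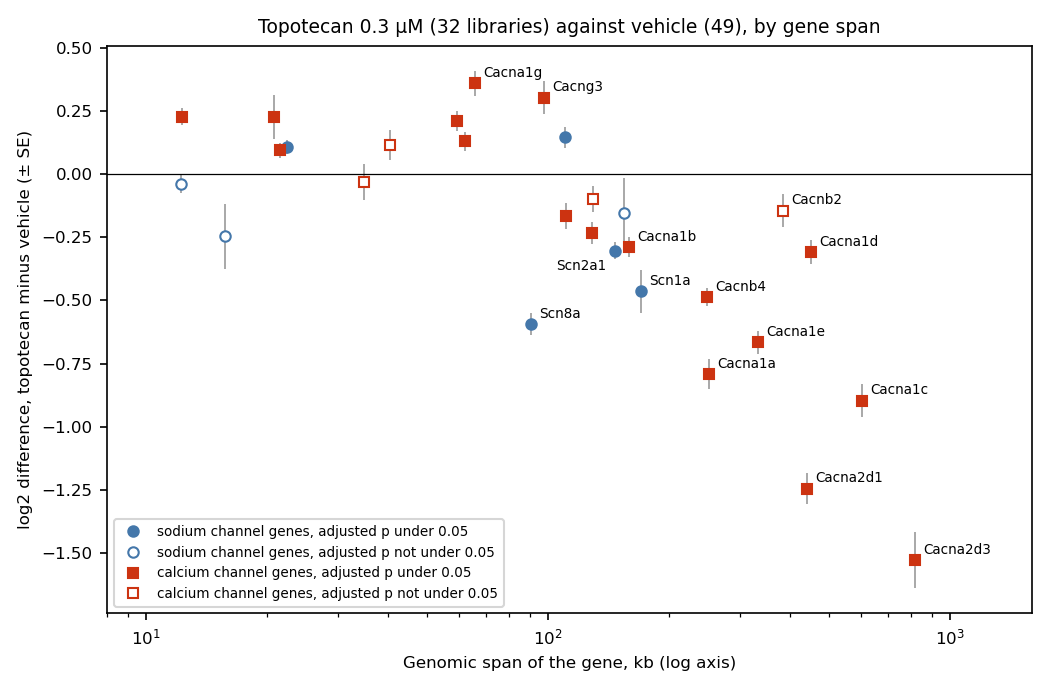
Log2 difference of topotecan against vehicle, with its SE, for 29 channel genes by genomic span in kb (log axis), with filled marks for an adjusted p under 0.05. Genes of 200 kb and more lie below 0, down to -1.53 for Cacna2d3, and Cacna1g and Cacng3 are the highest at 0.36 and 0.30.

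On mm9 chromosome 2, 5 sodium channel alpha genes lie in the same region, with the widest gap between Scn2a1 and Scn1a. They are Scn3a at 65295175 to 65405684, Scn2a1 at 65458914 to 65605504, Scn1a at 66108838 to 66278897, Scn9a at 66318137 to 66473009 and Scn7a at 66511482 to 66622971. With topotecan these genes did not move together. Scn3a, with 110.5 kb, rose by 0.14, Scn2a1, with 146.6 kb, fell by 0.30, Scn1a, with 170.1 kb, fell by 0.46, and Scn9a, with 154.9 kb, was at -0.15 (adjusted p = 0.385). Scn7a is not among the genes of the screen. With pyraclostrobin the same genes were at -0.78, -0.67, -1.01 and 0.05 in this order.

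The other topoisomerase 1 inhibitors had 1 library each. Camptothecin at 0.3 μM, the dose of topotecan, had Cacna2d3 at -1.53, Cacna2d1 at -1.47 and Cacna1c at -1.12, and put 11 channel genes outside the vehicle range (14.6% of all genes), beside 9 for the topotecan median (5.57%). Irinotecan at 10 μM had these genes at -1.31, -0.73 and -0.61 and put 7 outside (4.07%). All 3 genes were below the vehicle range with each of the 3 compounds. A median of 32 libraries varies less than 1 library, so the counts outside the range are not alike between topotecan and the others. Partner genes fell with topotecan in 23 of 29 cases and rose in 1 (Fgf11), among them Erc2 (-1.60) and Rims1 (-1.35), scaffolds of the presynaptic release site, Fgf12 (-1.08) and Fgf14 (-1.04). Of the neuronal markers 7 of 8 fell and 1 rose, and 5 of 7 astrocyte markers and 6 of 8 immediate early genes fell; their part in the channel values was not tested.

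Pyrethroids were set apart because sodium channels are their target. Each of the 11 pyrethroids whose name ends in thrin had 1 library: cypermethrin, cyfluthrin, fenpropathrin, bifenthrin, permethrin, prallethrin, resmethrin, S-bioallethrin and tetramethrin at 10 μM, d-cis,trans-allethrin at 1 μM and tefluthrin at 0.1 μM. Together they were compared with the 49 vehicle libraries, the spread being that between compounds. None of the 10 sodium channel genes was called by limma. Of them 3 had an unadjusted p under 0.05, beside 10 of the 31 channel genes and 2277 of all 13304 genes. The calcium channel genes Cacna1i and Cacnb3 fell, beside 3.65% of all genes called, 2.19% lower and 1.46% higher. The median difference was -0.05 for the channel genes. No channel gene had groups without overlap, and no gene of the table had (0%).

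Among sodium channel alpha genes the intervals of the difference were narrow for the abundant members. The 95% interval was -0.16 to -0.01 for Scn2a1, -0.21 to 0.03 for Scn8a and -0.25 to -0.05 for Scn3a, with adjusted p-values of 0.245, 0.45 and 0.0865. It was wider for Scn1a (-0.17 to 0.38) and Scn9a (-0.24 to 0.59).

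Cacna1i, the Cav3.3 channel, lay at -0.72, -0.32 and 0.16 with pyrethroids and at -0.60, 0.04 and 0.36 with vehicle. In 10 of 11 compounds it was below the vehicle median, led by fenpropathrin (-0.72), bifenthrin (-0.67) and cyfluthrin (-0.51), and the difference was -0.29 (SE 0.078, adjusted p = 0.0226). Cacnb3 lay at -0.62, -0.08 and 0.17 beside -0.54, 0.07 and 0.25. With fenpropathrin, S-bioallethrin, cyfluthrin and bifenthrin it was between -0.62 and -0.41, and with the other 7 between -0.10 and 0.17 (difference -0.20, SE 0.060, adjusted p = 0.0413). The count of 2 genes changed with single compounds. It was 0 without bifenthrin, fenpropathrin or cyfluthrin, 1 without S-bioallethrin or tefluthrin and 4 without d-cis,trans-allethrin. Over all 13304 genes the number called moved too, from 159 without fenpropathrin to 703 without d-cis,trans-allethrin, beside 486 with all compounds. Of the 8 immediate early genes Npas4 rose (0.77), and no other was called by limma. Fos was at 0.68 (adjusted p = 0.0813), Bdnf at 0.57 (0.0505) and Egr1 lower, at -0.36 (0.0521). The others lay at 0.40 (Nr4a1), 0.24 (Fosb), 0.003 (Arc) and -0.009 (Junb). Of the cell markers 1 neuronal and 1 microglial gene fell. The part of these genes in the channel values was not tested.

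**Figure D5:**
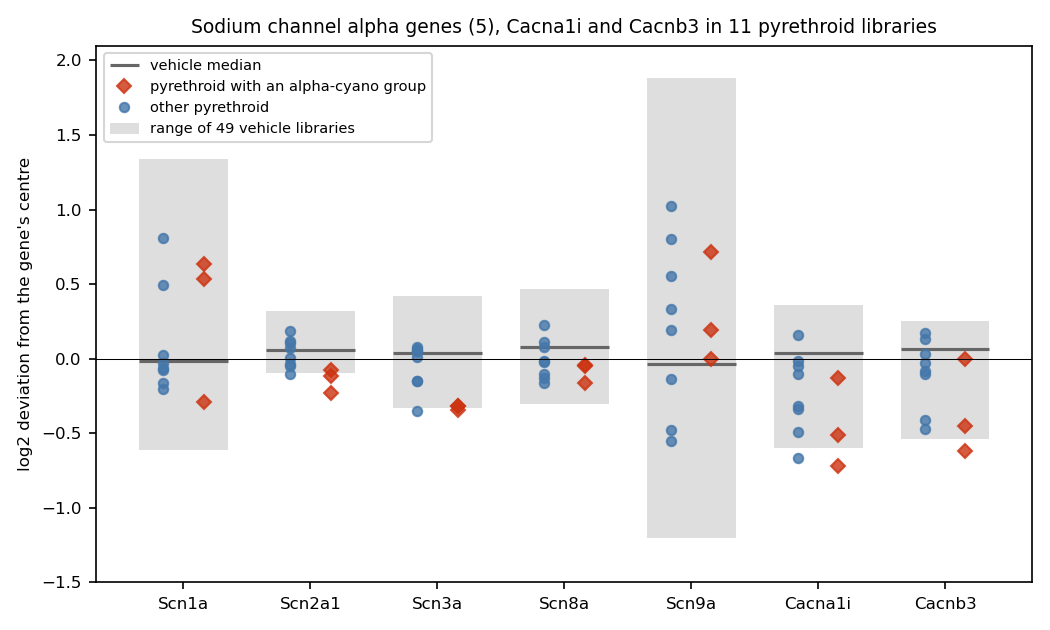
Log2 deviation from the centre of the gene for 5 sodium channel alpha genes, Cacna1i and Cacnb3 in 11 pyrethroid libraries, with the range (grey) and median (bar) of the 49 vehicle libraries. Points of Scn2a1 lie between -0.23 and 0.19, and the lowest point of all is fenpropathrin for Cacna1i at -0.72.

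Pyrethroids with an alpha-cyano group (cypermethrin, cyfluthrin and fenpropathrin) keep sodium channels open for longer than those without it, and the 3 were compared with the 6 others at 10 μM. No gene of the table passed at an adjusted p under 0.05 by limma, while 1048 of 13304 (7.88%) and 7 of the 31 channel genes had an unadjusted p under 0.05. Esfenvalerate at 10 μM, a pyrethroid with this group whose name lacks thrin, was left out of the 3. With it added, 610 genes and 3 channel genes had an unadjusted limma p under 0.05. The median difference of the channel genes was -0.167 without it and -0.0786 with it. Cacna2d3 lay at -0.77 with cypermethrin, -0.50 with fenpropathrin and -0.01 with cyfluthrin, and at -0.00, 0.21 and 0.63 (lowest, median and highest) in the others. The difference was -0.70 with a 95% interval of -1.15 to -0.25 (adjusted p = 0.549). Cacng2 lay at -0.22 with cyfluthrin, -0.15 with fenpropathrin and -0.13 with cypermethrin, below the 0.04, 0.13 and 0.26 of the others (-0.30, interval -0.50 to -0.11, adjusted p = 0.549). Groups did not overlap for 5 channel genes, beside 3.54% of all genes. The interval for Scn3a was -0.54 to -0.02 and that for Scn3b -0.41 to -0.01, so that a difference between the classes of compounds was neither called nor bounded near 0.

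With each chemical of the screen as the median of its libraries, 117 of 297 had no channel gene outside the range of the vehicle libraries and 85 had 1. The median chemical had 1 of 31 channel genes outside, beside a median of 4.21% of all genes, so that counts of 0 or 1 lie near the background. Outside the classes above, the insecticide methidathion had the most, 9 genes, all below (11% of all genes outside), and emamectin benzoate (12.1%) and oxyfluorfen (12.2%) had 8 each, 7 of them below, and metiram-zinc had 7 (9.61%). Of the pyrethroids fenpropathrin and bifenthrin had 6 each (11.5% and 6.83%). Esfenvalerate, the pyrethroid outside the set of 11, had 2 (6.42%). Other insecticides known to act on sodium channels include indoxacarb, which blocks them, with 3 genes outside (4.01%), and methoxychlor, a relative of DDT, with 2 (5.02%). Most chemicals had 1 library, so these counts carry no replicate check.

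Scn2a1 was the channel gene most often below the vehicle range, with 56 chemicals below its lowest vehicle library at -0.10 and 4 above its highest. Over all genes the median was 5 chemicals below, and 29 of 13304 genes (0.218%) had 56 or more. Its vehicle libraries had the smallest SD of the channel genes, 0.108, and its lowest values were those of fenamidone (-0.69) and trifloxystrobin (-0.56). Cacna1e and Scn3a followed with 21 chemicals below, and Scn2b and Cacna1d with 19. Cacng4 was the gene most often above, with 22 chemicals. Cacnb2 stayed inside the range for all chemicals. Camptothecin gave the lowest value of Cacna2d3, Cacna2d1, Cacna1c, Cacna1a, Cacna1e and Cacnb4, pyridaben those of Scn3a (-0.87) and Cacna1b (-0.82), pyraclostrobin those of Scn8a (-0.85) and Scn2b (-0.85), and fenpyroximate that of Cacng2 (-1.12).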

How the data were processed

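Reads were filtered by the authors with TagDust, aligned to mm9 with TopHat at default settings and counted over exons of RefSeq models joined by symbol, and reads on ribosomal RNA genes were dropped. The counts for pyraclostrobin were deposited without normalization. For the screen the authors deposited log10 values, made from RPKM of genes detected in most samples that were quantile normalized, centred on the gene median and freed of batch effects with a mixed model. Batches can therefore not be examined, and the labels name none. The reads were counted without a stated strand.

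Counts were tested with edgeR 4.0.16 in R 4.3.3 (quasi-likelihood test, TMM, at least 10 counts in at least 4 libraries, threshold 0.01 after Benjamini-Hochberg adjustment over all 12324 genes tested). Values of the screen were converted to log2 and tested with limma 3.58.1 (threshold 0.05, adjustment over 13304 genes), without a variance trend since centred values hold no level. Tests were two-sided. Both procedures were checked on simulated data. DESeq2 1.42.0, other scaling, filters, thresholds and the removal of single libraries were alternatives. Summaries and sequence searches used Python 3.11.15 (pandas 2.3.3, scipy 1.17.1, numpy 2.4.6). Spans and exon lengths came from the GENCODE annotation of mm9, whereas the authors used RefSeq models. At the smallest total, 2409623 counts, 3 counts correspond to 1.25 CPM.

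Full statistics were given for up to 8 called channel genes with the largest difference in each comparison, and all others by value or count. Columns of the pyraclostrobin table show the group and a number but not which replicate. Libraries of 1 number did not deviate together for all 4 numbers (correlations of 0.376 for 428, 0.102 for 702, -0.0290 for 703 and 0.161 for 704). The numbers were therefore not used as pairs in the main fit, and a fit with the number as a block was an alternative. A table with 6 columns of per-sample values from sulforaphane cultures was not used, since its columns share 1 name. The channel genes, partner genes and marker lists were chosen with earlier results of these data known. Results of 2 channel genes are not reported here, although counts and medians over the channel genes include them.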

Additional observations from a re-analysis of the deposited data

Results flagged for a closer look

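Each of the 31 tested channel genes was examined in 3 groups: the 4 vehicle and the 4 pyraclostrobin libraries of the count table (log2 CPM with an offset of 0.5) and the 6 pyrethroids without an alpha-cyano group at 10 μM. In 9 of these 93 groups, all of them of 4 libraries, 1 library lay apart by Dixon's ratio (critical values 0.829 for 4 and 0.625 for 6 values). Chance gives about 1 in 20. The vehicle library 428 was the lowest for Cacna1b (ratio 0.881, at 6.88 against 7.55 to 7.64), Cacng4 (0.912, at 5.91 against 6.27 to 6.31), Scn2a1 (0.908, at 7.70 against 8.69 to 8.79), Scn2b (0.885, at 5.60 against 6.14 to 6.21), Scn3a (0.93, at 6.39 against 7.20 to 7.26) and Scn8a (0.923, at 6.84 against 7.51 to 7.57). The pyraclostrobin library 428 was the lowest for Cacng4 (0.949, at 5.90 against 6.24 to 6.26) and Cacna2d1 (0.835, at 7.90 against 8.36 to 8.45). The pyraclostrobin library 702 was the highest for Cacna1d (0.877, at 5.31 against 4.93 to 4.98).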

How the results depend on the processing

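For pyraclostrobin the 11 channel genes called became 15 with DESeq2, 11 with size factors by relative log expression, 14 without a filter and 17 at a threshold of 0.05. Over all genes 2631 of 12324 were called in the main fit, 3365 with DESeq2, 2650 with relative log expression and 4301 at 0.05. Without a filter 3000 of 18815 were called. Leaving out 1 library gave 3 to 19, and leaving out both libraries numbered 428, an alternative chosen after seeing the data, gave 22. A fit with the replicate number as a block gave 16, beside 3135 of 12324 genes. The study calls its vehicle controls matched, but no source used here ties the match to the replicate numbers. Libraries of number 703 did not deviate together. For topotecan the 23 became 5 when only the genes with an SD above 0.1 on the log10 scale were tested, and stayed at 22 or 23 otherwise. That limit keeps 8 of the 31 channel genes. For fenamidone the 9 became 1 under the same limit, and 6 to 8 without either library. For pyrethroids the 2 became 1 with each library recentred, 1 against the medians of all other chemicals, 0 at a threshold of 0.01 and 0 under the SD limit, 3 with compounds at 10 μM alone, 2 with esfenvalerate added, and 0 to 4 without 1 compound. The comparison by alpha-cyano group gave 0 throughout. No called channel gene reversed its direction. The comparison of sulforaphane with fenamidone against fenamidone was not run. Below a few CPM, as for Scn4b and Scn9a, depth limits the precision.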
